A study of Mus musculus with 99 samples.

Results

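Krt4, Krt13, Krt5, Krt14, Lor and Ada, a set of genes of stratified squamous epithelium, were followed through the hearts of 99 mouse strains. The set comprises every probe set of these 6 genes on the Affymetrix HT_MG-430A array, 8 probe sets among 22327 that are not controls, and 6 of the 11725 genes named on the array. Each array held heart RNA of untreated male mice of 1 strain on a chow diet, and no strain was measured again, so every spread given here is a spread between strains, technical spread included. The labels do not say whether an array held 1 heart or a pool. The protocol in the labels gives an age of 16 weeks, while the age label runs from 16 to 113 weeks along the order of the samples and was not used.

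There were 4 panels of recombinant inbred strains, which are inbred lines bred from a cross and fixed for a mixture of both parental genomes. C57BL/6J is a parent of each panel. DBA/2J is the other parent of the 30 BXD strains, A/J that of 15 AXB and 13 BXA strains, and C3H/HeJ that of 11 BXH strains. A further 28 strains were classical inbred strains, and CAST/EiJ, which is wild-derived, and B6cC3-1/KccJ made up the rest. Among the BXD strains, BXD24/TyJ-Cep290<rd16>/J carries the rd16 allele of Cep290 and BXD29-Tlr4<lps-2J>/J the lps-2J allele of Tlr4. The deposited values are log2 levels, and the array medians lie between 3.97 and 4.07. Of a list of 8 heart muscle genes, 7 were on the array, and their levels were high throughout, such as 13.56 for the median of Myl2, the ventricular myosin light chain, and 12.88 for that of Tnnt2, cardiac troponin T.

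Stratified squamous epithelium covers the skin and lines the mouse tongue, oesophagus and forestomach, and heart muscle holds none. Its dividing basal cells make the keratins Krt5 and Krt14, which pair with each other as a type II and a type I filament protein. Cells that leave the basal layer in the lining of the mouth and oesophagus switch to the pair Krt4 and Krt13, and in keratinising cells loricrin, the product of Lor, is cross-linked into the cornified envelope. Ada encodes adenosine deaminase, which turns adenosine into inosine and is abundant in the keratinised lining of the mouse upper alimentary tract and in the thymus.

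The promoters of 4 of the genes are shown because 3 of them, Krt13, Lor and Ada, were high on the same arrays, while Krt5 was not high on all of these. The sequences are those of the RefSeq table for GRCm38.p6, 250 bases before the annotated start of each gene. Capitals mark every match on either strand to the A/T-rich letters ATAAAA, which are looser than a TATA box, and to TGANTCA. The latter is wider than the site bound by AP-1 factors, which has C or G as its middle base.
Krt13 promoter, chr11:100121567-100121816, minus strand: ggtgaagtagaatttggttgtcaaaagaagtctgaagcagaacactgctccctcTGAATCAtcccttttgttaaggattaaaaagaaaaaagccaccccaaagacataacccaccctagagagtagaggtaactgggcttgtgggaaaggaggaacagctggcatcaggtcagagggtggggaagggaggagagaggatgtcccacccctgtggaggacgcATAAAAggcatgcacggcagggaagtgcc
Lor promoter, chr3:92083143-92083392, minus strand: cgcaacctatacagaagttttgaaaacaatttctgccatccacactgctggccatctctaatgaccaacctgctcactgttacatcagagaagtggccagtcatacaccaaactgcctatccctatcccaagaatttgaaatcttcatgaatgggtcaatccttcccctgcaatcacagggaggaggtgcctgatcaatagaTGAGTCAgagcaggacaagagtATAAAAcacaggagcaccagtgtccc
Ada promoter, chr2:163750240-163750489, minus strand: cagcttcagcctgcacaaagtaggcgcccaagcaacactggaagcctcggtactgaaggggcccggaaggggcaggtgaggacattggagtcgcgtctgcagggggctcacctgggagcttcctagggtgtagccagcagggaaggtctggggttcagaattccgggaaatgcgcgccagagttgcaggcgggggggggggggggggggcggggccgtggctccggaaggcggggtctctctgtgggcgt
Krt5 promoter, chr15:101712906-101713155, minus strand: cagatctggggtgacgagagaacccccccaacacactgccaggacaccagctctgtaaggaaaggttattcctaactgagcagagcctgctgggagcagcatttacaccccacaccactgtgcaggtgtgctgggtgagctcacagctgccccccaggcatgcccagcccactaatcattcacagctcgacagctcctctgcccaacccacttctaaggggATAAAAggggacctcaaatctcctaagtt
The A/T-rich letters ATAAAA stood 29 bases before the start of Krt13, 26 before that of Lor and 29 before that of Krt5, and were not found in the window of Ada, whose sequence is rich in G and C. Of all 32851 windows of this length in the table, 17% held this motif on either strand. In the windows shown, TGANTCA was found once in Krt13, as TGAATCA 196 bases before the start. It was found once in Lor, as TGAGTCA 48 bases before the start. Of these, only the match in Lor has C or G in the middle. A further window of Krt13 in the RefSeq table, not at the annotated start of the gene, is not shown. It holds 2 matches, both TGACTCA, with C in the middle. No match was found in the windows of Ada and Krt5. TGANTCA was present in 6.75% of all windows, a share that counts any middle base. The 2 motifs did not overlap in these sequences. Both motifs were chosen with the levels known, and a match describes letters only.

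On 89 of the 99 arrays all 8 probe sets stayed within 1 log2 unit of their median array or below it. The medians of the 6 genes, each taken at its brighter probe set, ran from 3.12 for Krt4 to 3.32 for Krt5, near the lowest values on the array. On 8 arrays at least 1 gene lay more than 2 log2 units above its median, and these were 3 classical, 2 AXB, 2 BXH and 1 BXA array, with no BXD array among 30. Of the 6 genes, 5 passed this level on at least 1 array, where 3.86% of all probe sets did so. Krt4, Krt13, Lor and Ada passed it on 7 or more arrays, where 0.685% of all probe sets did. The genes were chosen with such levels already known, so nothing is read from these shares. Between arrays with high levels, a difference in squamous cell number and one in RNA per cell cannot be told apart.

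**Figure D1:**
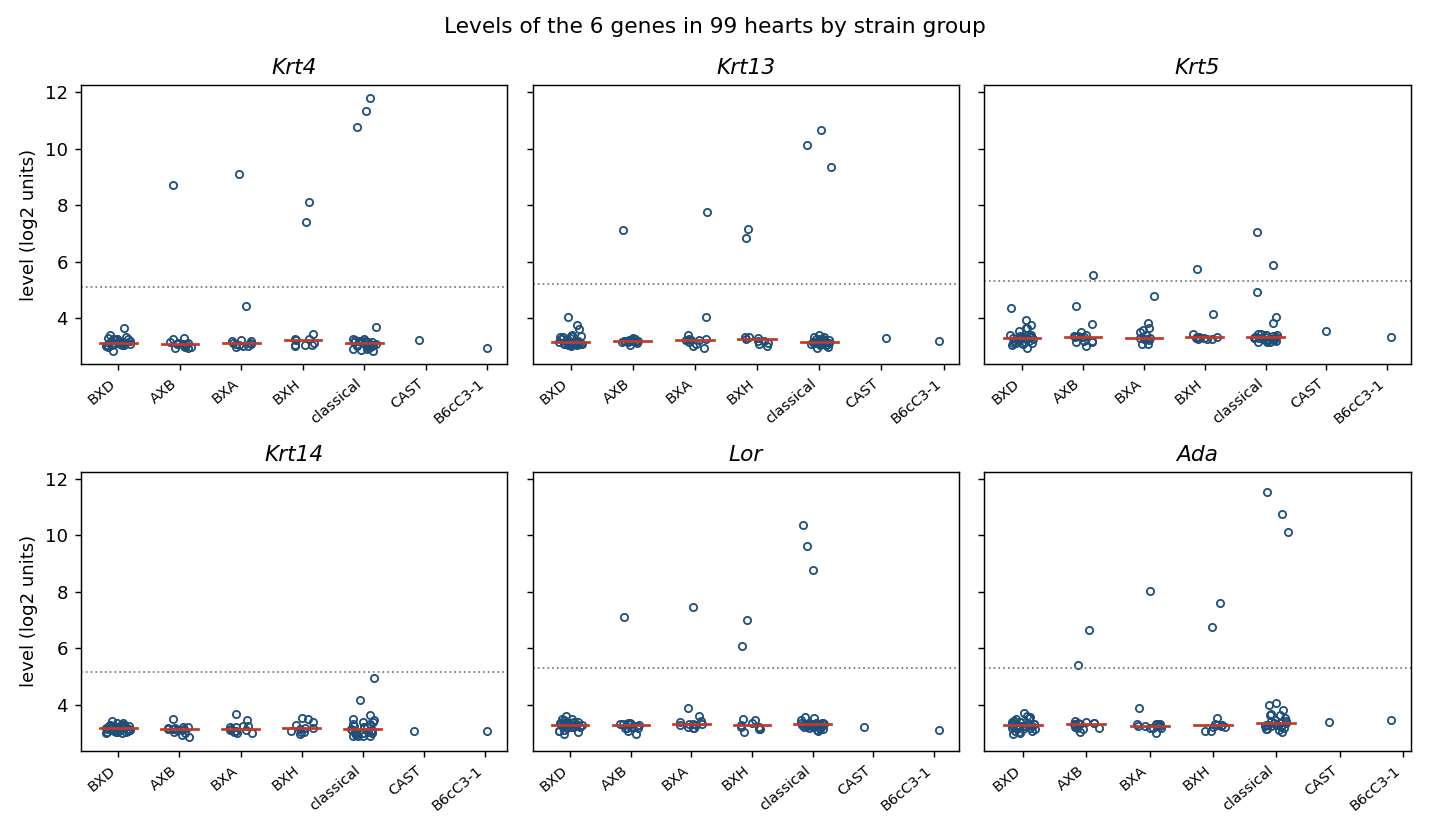
Level of each gene (y axis, log2 units) on every array, by strain group (x axis), with a red line at the group median and a dotted line 2 log2 units above the median of all 99 arrays. Most arrays lie between 3 and 4, and the same few arrays of the classical, BXH, AXB and BXA groups rise to between 6 and 12 for Krt4, Krt13, Lor and Ada.

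Krt4, the type II keratin of the upper cell layers of the oral and oesophageal lining, was high on 7 arrays, with no array between 4.42 and 7.38. Its level was 11.80 in 129X1/SvJ, 11.34 in CE/J and 10.75 in NOD/ShiLtJ, all classical strains. It was 9.09 in BXA7/PgnJ, 8.72 in AXB13/PgnJ, 8.11 in BXH19/TyJ and 7.38 in BXH6/TyJ. BXA25/PgnJ, at 4.42, was the next array below, and the 30 BXD arrays ran from 2.83 to 3.64 with a median of 3.12.

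Krt13, the type I partner of Krt4, was high on the same 7 arrays. It was 10.64 in 129X1/SvJ, 10.13 in CE/J, 9.36 in NOD/ShiLtJ, 7.76 in BXA7/PgnJ, 7.16 in BXH6/TyJ, 7.10 in AXB13/PgnJ and 6.84 in BXH19/TyJ. The order matched that of Krt4 but for BXH6/TyJ, which was lowest of the 7 for Krt4 and above AXB13/PgnJ and BXH19/TyJ for Krt13. The next array, BXD32/TyJ, had 4.05. Another probe set of Krt13, with the suffix x, passed the level only in 129X1/SvJ, with 5.68, and the next array, NOD/ShiLtJ, had 3.93. The suffix marks probes that can bind other transcripts, and the probe sets of Krt13 gave different counts of arrays, 7 and 1.

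Lor, the envelope protein of keratinised cells, also parted the 7 arrays from the others. Its level was 10.38 in 129X1/SvJ, 9.61 in CE/J, 8.77 in NOD/ShiLtJ, 7.45 in BXA7/PgnJ, 7.11 in AXB13/PgnJ, 7.01 in BXH19/TyJ and 6.07 in BXH6/TyJ, in the order of Krt4. No other array passed 3.89.

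Ada, which breaks down adenosine, was high on these 7 arrays and on 1 more. It was 11.51 in 129X1/SvJ, 10.77 in CE/J, 10.12 in NOD/ShiLtJ, 8.05 in BXA7/PgnJ, 7.59 in BXH6/TyJ, 6.77 in BXH19/TyJ and 6.63 in AXB13/PgnJ. The additional array was AXB19/PgnJ with 5.42, where Krt4, at 2.97, and Lor, at 3.17, were near the lowest values of the array. The next array, NZB/BlNJ, had 4.06. Other genes that handle purines and adenosine were also read from a list. None of the 10 on the array out of 15 listed passed 2 log2 units on any of the 7 arrays. In AXB19/PgnJ Dck alone did, the kinase that phosphorylates deoxycytidine, at 5.75 over a median of 3.10. Adk and Hprt had medians of 10.3 and 8.55, where 2 log2 units are a far larger step than near the lowest values. Nt5e, the ectoenzyme that makes adenosine from AMP, was 6.89 in 129X1/SvJ and 6.77 in AXB19/PgnJ over a median of 5.77, and Dpp4, a surface peptidase that binds adenosine deaminase in humans, was 5.59 in AXB19/PgnJ over a median of 4.24.

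Krt5, the type II keratin of basal cells, stood less far above its median than Krt4 on each of the 7 arrays with high Krt4. It was 7.05 in 129X1/SvJ, 5.89 in CE/J, 5.75 in BXH6/TyJ and 5.53 in AXB19/PgnJ, the 4 arrays beyond 2 log2 units. In NOD/ShiLtJ it was 4.92, which is 1.61 log2 units above its median. BXA7/PgnJ had 4.79, AXB13/PgnJ 4.41, BXD32/TyJ 4.37 and BXH19/TyJ 4.15. The number of arrays depends on the limit, with 8 arrays beyond 1 log2 unit and 1 beyond 3. Krt14, the type I partner of Krt5, was highest in 129X1/SvJ, at 4.97, and in CE/J, at 4.17, and its standing probe set passed 2 log2 units on no array. Its other probe set, also with the suffix x, had 5.56 in 129X1/SvJ, 3.91 in AXB19/PgnJ and 3.81 in NOD/ShiLtJ.

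**Figure D2:**
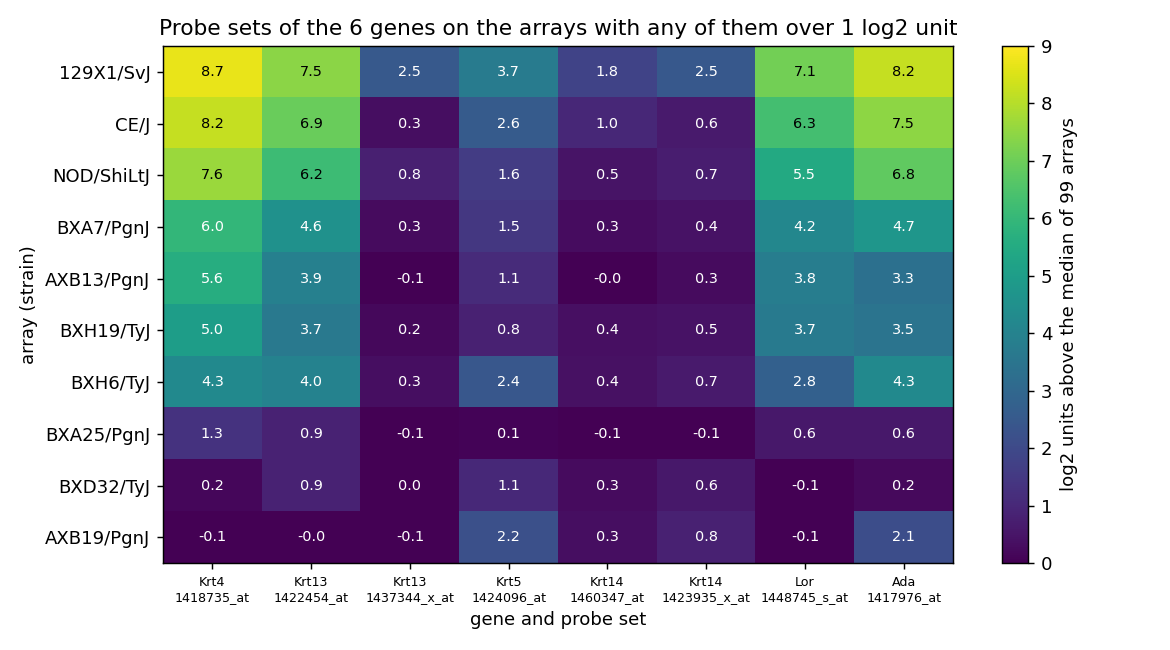
Log2 units above the median of 99 arrays for the 8 probe sets (x axis) on the 10 arrays where any of them passed 1 log2 unit (y axis). Values are shown by colour, with those below 0 coloured as 0, and are printed with their sign. The first 7 arrays are high for Krt4, Krt13, Lor and Ada, and AXB19/PgnJ is high for Krt5 and Ada only.

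The 7 arrays differed in the height of each gene. BXH19/TyJ minus 129X1/SvJ was -3.69 log2 units for Krt4, -3.80 for Krt13, -3.37 for Lor, -4.75 for Ada and -2.90 for Krt5. BXH6/TyJ minus 129X1/SvJ was -4.42 for Krt4 and -4.31 for Lor, a wider distance than in BXH19/TyJ, but -3.92 for Ada and -1.30 for Krt5, a smaller one. Taken as height above the median array, Krt5 minus Krt4 was -1.83 in BXH6/TyJ and lay between -6.02 and -4.16 on the other 6 arrays. Ada minus Krt4 was 0.01 in BXH6/TyJ and lay between -2.29 and -0.49 on the others. In AXB19/PgnJ, Krt5 and Ada were beyond 2 log2 units while Krt4, Krt13 and Lor were at the low end of the scale. Heights are counted from medians at that low end, where levels are compressed, so differences between genes are read only within the same pair of genes. Each array is 1 measurement, and these differences have no replicate check.

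**Figure D3:**
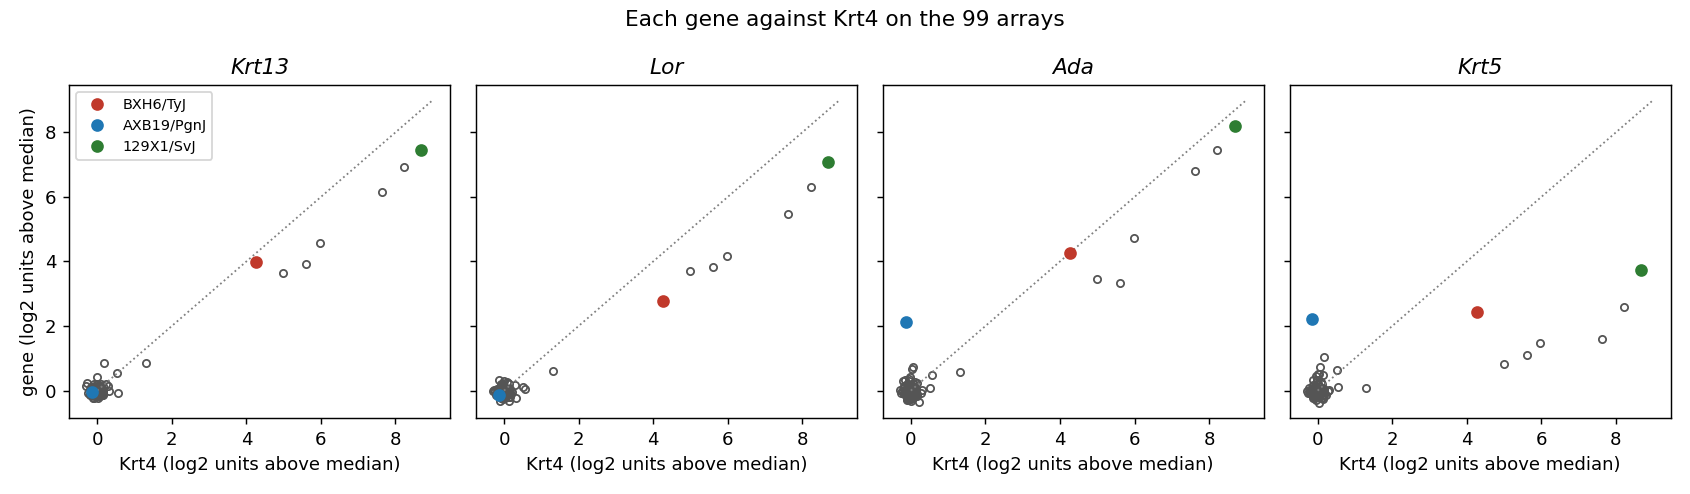
Height above the median array of Krt13, Lor, Ada and Krt5 (y axes, log2 units) against that of Krt4 (x axis, log2 units) on the 99 arrays, with a dotted line of equality. Krt13, Lor and Ada follow Krt4 on 7 arrays, BXH6/TyJ (red) lies high for Krt5 and Ada, and AXB19/PgnJ (blue) has Krt5 and Ada at 2.21 and 2.11 with Krt4 at -0.14.

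The likeness of the genes to each other was lower without the 8 arrays. Pearson's r of Krt4 was 0.99 with Krt13, 0.99 with Lor, 0.97 with Ada and 0.81 with Krt5 over 99 arrays, and 0.47, 0.30, 0.30 and 0.17 over the other 91. Over these 91 arrays it was 0.43 for Krt13 with Krt5, 0.38 for Krt5 with Krt14, 0.35 for Krt5 with Ada and 0.35 for Krt13 with Lor, and from 0.027 to 0.47 over all pairs of the 6 genes. These values describe arrays that share platform and normalisation, and the first set rests on the few high arrays.

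Other genes of squamous epithelium were read from lists of its layers. Of 32 suprabasal and cornified genes on the array, 10 passed 2 log2 units on at least 1 of the 7 arrays and 6 on at least 3 of them. The same 10 were all that passed on any of the 99 arrays, where 3.86% of all probe sets did. The list was chosen with earlier results known, so nothing is read from these shares. Dsp and Jup of this list had medians of 11.03 and 7.45, where 2 log2 units are a far larger step than near the lowest values. Krtdap, a secreted protein of differentiating keratinocytes, passed on all 7 (9.99 in 129X1/SvJ, 5.94 in BXH19/TyJ, median 3.13). Sprr3, a small proline-rich envelope protein of the oral and oesophageal lining, was 9.77 in 129X1/SvJ, 9.06 in CE/J, 8.58 in NOD/ShiLtJ and 5.83 in BXA7/PgnJ, and 3.52 in BXH6/TyJ. Sprr2a1, of the same family, was highest in CE/J, at 9.24. The desmosomal plaque protein Pkp1 was 7.25 in 129X1/SvJ, 6.86 in CE/J, 6.09 in NOD/ShiLtJ and 5.50 in BXA7/PgnJ. Calml3, a calmodulin-like protein of epithelial cells, and Sprr1a passed the level on the 3 classical arrays.

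Other members of the suprabasal and cornified list were low on the same arrays. In 129X1/SvJ, where 10 of the 32 genes passed, among them the envelope genes Lce1a1 at 6.53 and Sprr3 at 9.77, Krt1 was 3.05, Krt10 4.02 and Krt2 3.07, the keratins of the upper epidermis. Flg, the filaggrin precursor, was 3.05 there, the envelope precursor Ivl 3.22 and the wound-induced keratin Krt6a 3.00. None of these 6 passed 2 log2 units on any of the 99 arrays, and they are named here because they were low. A low value may also come from a probe set that does not detect its transcript. For Rptn, which encodes repetin, the probe set that stood for the gene reached 3.65, while another reached 8.26 in 129X1/SvJ and passed the level on 4 arrays. For Lce1a1 the probe set that stood for the gene has the suffix x. Another reached 4.76 in 129X1/SvJ and passed the level on no array.

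In the basal list 1 gene rose beyond the limit. Of 10 basal genes on the array out of 13 listed, only Krt15, a further basal keratin, passed 2 log2 units, with 5.77 in 129X1/SvJ. It was 4.77 in BXH6/TyJ and 4.66 in CE/J. Dst, Perp and Itga6 had medians of 9.83, 8.65 and 7.09, where 2 log2 units are a far larger step than near the lowest values. Trp63, the transcription factor of basal cells, was at most 4.17, in CE/J, and the hemidesmosome integrin Itgb4 at most 3.61. The share of all probe sets beyond 2 log2 units was 0.349% on the 129X1/SvJ array, 0.394% on CE/J, 0.305% on NOD/ShiLtJ, 0.184% on BXA7/PgnJ, 0.627% on AXB13/PgnJ, 0.202% on BXH19/TyJ and 0.502% on BXH6/TyJ. It was 0.851% on AXB19/PgnJ and 0.0358% on BXA25/PgnJ.

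**Figure D4:**
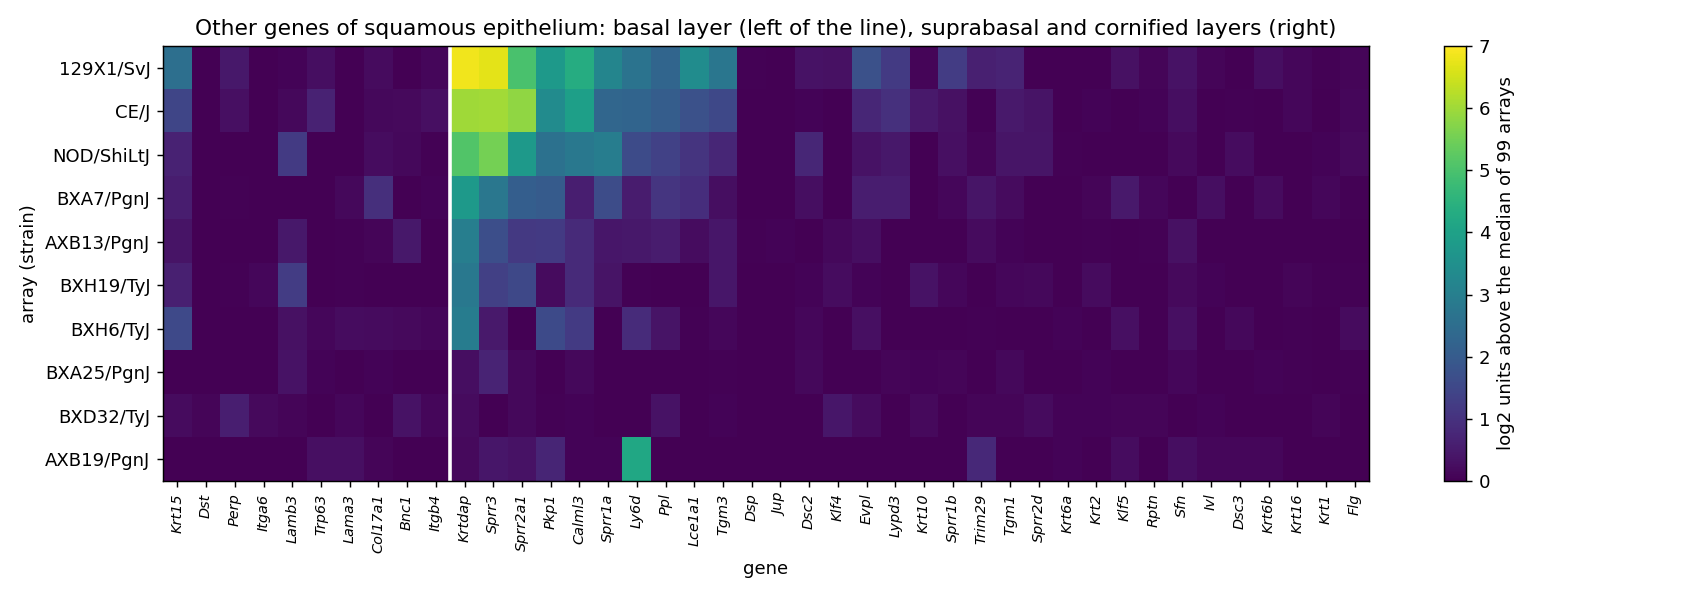
Log2 units above the median of 99 arrays (colour, values below 0 drawn as 0) for basal genes (left of the white line) and suprabasal and cornified genes (right of it) on the x axis, on 10 arrays (y axis). Krtdap, Sprr3 and Sprr2a1 are highest, Krt15 is the one basal gene beyond 2, and Ly6d alone is high in AXB19/PgnJ.

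The named genes most like each of the 6 were then ranked over all genes on the array. Krtdap and Lce3c, a late cornified envelope protein, led the ranking for Krt4, Krt13, Lor and Ada (r between 0.97 and 0.99 over 99 arrays, and between 0.94 and 0.98 over the 97 left without the 2 highest arrays of each gene). Lce3a, of the same family, followed within the first 4 for each of them. The probe sets of Lce3c and of Lce1d, named below, have the suffix x, which marks probes that can bind other transcripts. The metallothionein Mt4, known from squamous epithelium, and the aldehyde dehydrogenase Aldh3a1 completed the list for Krt4, Krt13 and Lor, and Asprv1, a skin protease, and Dmkn, the secreted dermokine, for Ada. Krt5 was most like Mt4, Krtdap, Pkp1, Aldh3a1 and S100a14, with r between 0.84 and 0.86, and between 0.67 and 0.72 without its 2 highest arrays. Krt14 was most like Serpinb11, Lgals7, Sptssb, Serpinb5 and Lce1d (r between 0.80 and 0.82), and r was between 0.45 and 0.49 without 129X1/SvJ and CE/J. For Krt4, Krt13, Lor and Ada, leaving out 2 arrays kept their other high arrays in, so the second r is no check on the ranking.

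Transcripts of fast skeletal muscle were high on the same arrays. Only 14 probe sets passed 2 log2 units on all 7 arrays with high Krt4. They were those of Krt4, Krt13, Lor and Ada, Krtdap and Lce3c, an unnamed probe set, and 7 probe sets of fast and developmental muscle genes, Myh1 with 2, Myh8, Mylpf, Tnnc2, Tnni2 and Tnnt3. This set was taken from the values, and all its muscle genes but Myh8 are also in the fast muscle list. Tnnc2, the troponin C of fast fibres, was 10.16 in 129X1/SvJ, 9.23 in CE/J, 9.06 in NOD/ShiLtJ, 9.14 in BXA7/PgnJ, 9.36 in AXB13/PgnJ, 8.09 in BXH19/TyJ and 9.10 in BXH6/TyJ, over a median of 3.31. Its spread over these arrays was narrower than that of Krt4.

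The muscle and squamous genes also parted. The fast muscle list of 11 genes had a mean height beyond 2 log2 units on 9 arrays, 6 of them among the 7 with high Krt4 (66.7% of the first and 85.7% of the second). BXH19/TyJ missed it with 1.75. The other 3 were CAST/EiJ (5.87), BXD32/TyJ (5.06) and BXD2/TyJ (3.46), where Krt4 was 3.23, 3.29 and 2.98. On these arrays Krt5 was 3.53, 4.37 and 3.65. Myh4, the myosin of the fastest fibres, passed 2 log2 units only in CAST/EiJ, and Myh2 among the 7 arrays only in 129X1/SvJ, with 5.74.

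Airway transcripts overlapped only in part. The airway and lung list of 8 genes passed 2 log2 units on 26 arrays, 5 of them with high Krt4 (19.2% of the first and 71.4% of the second). Its mean was 6.24 in BXH6/TyJ and between 3.44 and 3.70 in NOD/ShiLtJ, CE/J, AXB13/PgnJ and BXH19/TyJ, but -0.14 in 129X1/SvJ and -0.13 in BXA7/PgnJ. Scgb1a1, the secretoglobin of club cells, was 3.76 in 129X1/SvJ, the array highest in all 6 squamous genes. On the 21 airway arrays without high Krt4, the 6 genes all stayed within 1 log2 unit of their medians or below, with Krt5 between 3.11 and 3.94. In BXH6/TyJ, the array with more Krt5 for its Krt4, the surfactant gene Sftpc was 11.51 and the simple epithelial keratin Krt19 7.93, its highest value. The part of other tissues in the Krt5 level was not tested, and neither was that of fast muscle in the levels of the 7 arrays.

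Thymus transcripts were high in AXB19/PgnJ and not on the 7 arrays. The thymus list of 12 genes had a mean of 3.86 in AXB19/PgnJ and between -0.01 and 0.07 on the 7. Rag1, which cuts antigen receptor genes, was 9.47 there, Cd8b1, a T cell coreceptor chain, 9.02, Prss16, a thymic epithelial protease, 9.09 and the chemokine Ccl25 8.47. Of the 12 genes, 9 passed 2 log2 units on at least 1 array. Rag2, Ptcra and Foxn1 passed on none, and were 3.86, 3.38 and 3.25 in AXB19/PgnJ. Ly6d, a surface protein of lymphoid and squamous cells, was 7.57 and the simple epithelial keratin Krt18 7.73, both the highest of all arrays. BXD14/TyJ also passed with a thymus mean of 2.07, and had Ada at 3.50 and Krt5 at 3.77. The part of thymus in the Ada and Krt5 levels of AXB19/PgnJ was not tested. The thyroid and parathyroid list had a mean of at most 0.11 on the 8 arrays. The heart muscle list lay between -0.09 and 0.02 on these 8 arrays and between -0.31 and 0.11 on the other 91. Its genes lie near the top of the scale of the arrays.

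**Figure D5:**
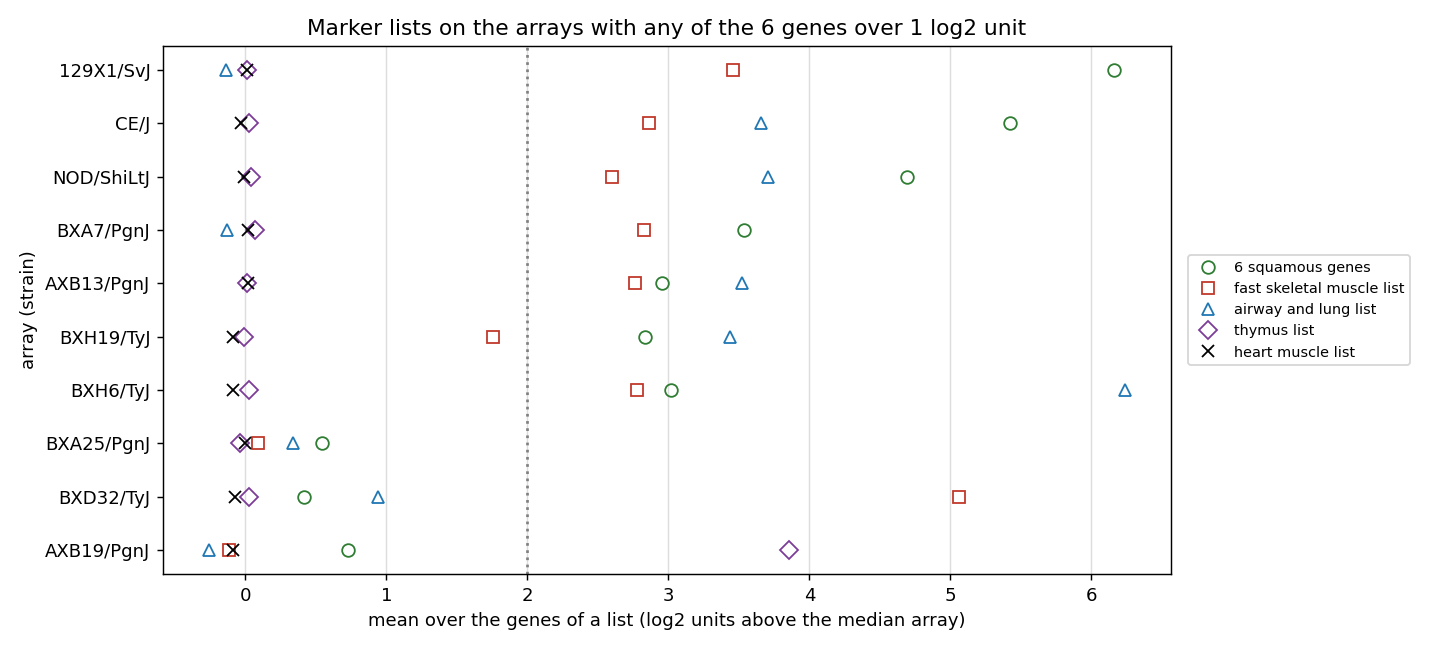
Mean over the genes of each list (x axis, log2 units above the median array) on 10 arrays (y axis), with a dotted line at 2. The squamous genes and the fast muscle list are high together on the 7 arrays with high Krt4, with BXH19/TyJ at 1.75 for muscle, and only AXB19/PgnJ is high for thymus.

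The recombinant inbred arrays with high levels were not matched by their parents. Krt4 was 3.03 in C57BL/6J, 3.05 in A/J, 3.15 in C3H/HeJ and 3.28 in DBA/2J, and the highest parental value over the median array was 0.16 log2 units among the 6 genes. Of 69 recombinant inbred arrays, 4 exceeded the higher parent by more than 2 log2 units for Krt4, Krt13 and Lor each, AXB13/PgnJ, BXA7/PgnJ, BXH6/TyJ and BXH19/TyJ, and 5 for Ada, with AXB19/PgnJ. For Krt5 these were AXB19/PgnJ and BXH6/TyJ, and for Krt14 there were 0. Near-isogenic strains differed in some genes only. Ada was 5.42 in AXB19/PgnJ, 3.15 in AXB19a/PgnJ and 3.38 in AXB19b/PgnJ, and Krt5 was 5.53, 3.37 and 3.36 on these arrays. Krt4 lay between 2.95 and 3.28 on them, Krt13 between 3.15 and 3.29, and Lor between 3.17 and 3.33. BXD24/TyJ-Cep290<rd16>/J and BXD24/TyJ were both at the low end, with Ada at 2.97 and 3.43 and Krt4 at 3.34 and 3.11.

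The 3 highest arrays have neighbouring titles. Each title is a number with no stated meaning, and 129X1/SvJ, NOD/ShiLtJ and CE/J carry 289, 296 and 303, which follow each other when all 99 arrays are ordered by this number. The arrays before and after them, BTBR T<+> tf/J (286) and A/J (313), had Krt4 at 3.67 and 3.05. The other 4 arrays with high Krt4 carry 3, 19, 524 and 674. Whether the title number marks a shared day or handling was not tested. RNA quality, taken from the Gapdh controls as the 3' level less the 5' level, ran from -0.43 to -0.20 on the 8 arrays and from -0.47 to -0.071 on the other 91.

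The strain panels were then compared, since a study of expression in inbred strains asks which transcripts follow the genotype. No probe set of the 6 genes differed between panels in any of 3 comparisons. Each was fitted with limma over all 22327 probe sets, with Benjamini-Hochberg adjustment, and near-isogenic strains were averaged first. BXD hearts were set against AXB and BXA hearts, where the DBA/2J alleles meet those of A/J. Krt4 averaged 3.15 ± 0.15 in 29 BXD families and 3.59 ± 1.59 in 26 AXB and BXA families (SD), a difference of -0.44 (SE 0.29, limma adjusted p = 0.422). Ada averaged 3.31 ± 0.18 in BXD and 3.62 ± 1.13 in AXB and BXA, a difference of -0.32 (SE 0.21, limma adjusted p = 0.419). Of the 8 probe sets 0 were called and 0 had an unadjusted p under 0.05, where 7.48% of all probe sets were called. Without the 8 high arrays the difference was 0.0014 for Krt4 and 0.022 for Ada, and both sets of families lay near the lowest values.

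Of the listed genes in this comparison, 2 of 10 basal genes were higher in BXD and none lower. These were the laminin-binding integrin Itga6 (0.48, limma adjusted p = 0.000125) and the linker protein Dst (0.17, limma adjusted p = 0.00843), whose median levels of 7.09 and 9.83 are far above those of the basal keratins. Dst was not called with the Gapdh difference as a covariate (0.10, adjusted p = 0.302) or in the upper range of title numbers (0.12, adjusted p = 0.476). None of 32 suprabasal and cornified genes was called (lowest limma adjusted p = 0.207). In the purine list of 10, the deaminase of AMP Ampd3 was higher (0.74, adjusted p = 5.41e-05) and the salvage enzyme Hprt lower (-0.11, adjusted p = 0.0494). Hprt was not called with an intensity trend (adjusted p = 0.0562), the Gapdh covariate (-0.045, adjusted p = 0.665), in the lower and upper ranges of title numbers (adjusted p = 0.134 and 0.535) or without the 8 high arrays (adjusted p = 0.0888). In the fast muscle list of 11, Myl1 alone was called, lower in BXD (-1.08, limma adjusted p = 9.15e-05). Its median level in these hearts was 10.17, against 3.31 for Tnnc2, and the median difference over the fast muscle list was 0.028. The median difference was 0.016 over the basal, -0.034 over the suprabasal and cornified, and 0.0026 over all probe sets.

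AXB hearts were set against BXA hearts, reciprocal crosses of the same parents. Krt4 averaged 3.52 ± 1.57 in 13 AXB families and 3.66 ± 1.67 in 13 BXA families (SD), a difference of -0.14 (SE 0.59, limma adjusted p = 0.967). Each side held 1 array with high Krt4, AXB13/PgnJ and BXA7/PgnJ. Limma called 0 probe sets (0%), while 2008 had an unadjusted p under 0.05, none of them among the 8.

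BXH hearts were set against the classical strains. Title numbers largely part these groups, since the classical arrays begin at 40 and only 4 BXH strains lie at 40 and above. In that range the difference of Krt4 was -0.81 (limma adjusted p = 0.973). Krt4 averaged 3.996 ± 1.87 in 11 BXH strains and 3.98 ± 2.59 in 28 classical strains (SD), a difference of 0.019 (SE 0.83, limma adjusted p = 0.998), and of 0.31 without the array of 129X1/SvJ (adjusted p = 0.949). Lor averaged 3.86 ± 1.35 in BXH and 3.97 ± 1.998 in classical strains, a difference of -0.11 (limma adjusted p = 0.983) and of 0.13 without 129X1/SvJ (adjusted p = 0.975). Ada averaged 3.96 ± 1.60 in BXH and 4.20 ± 2.35 in classical strains (limma adjusted p = 0.964). High Krt4 was seen on 2 of 11 BXH and 3 of 28 classical arrays, and the SDs rest on them. None of the 8 probe sets was called or had an unadjusted p under 0.05, where 0.103% of all probe sets were called. No listed gene was called either, and the lowest limma adjusted p was 0.276, in the airway list. The difference of Ada was -0.24, and 0.032 without the array of 129X1/SvJ, so the sign for Lor and Ada turned when that array was left out. Without all arrays with a gene beyond 2 log2 units it was negative again, -0.031 for Lor and -0.16 for Ada (9 against 25 strains). A p above the threshold does not show that panels are alike, and with single arrays this far from the rest the intervals are wide.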

How the data were processed

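Heart RNA was hybridised to 1 array per strain, 99 in all. Per the submitters' processing notes the authors used GCOS and RMA, with no versions, and the deposited table holds log2 levels of 22416 probe sets, including 89 controls. RMA corrects background, normalises by quantiles and sums probes, so array medians are nearly equal and low levels are compressed. Scanner files were not analysed here, so signal over background is unknown, and the number of arrays limits the precision. No genome build is named there.

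Groups come from strain names. Gene names are those of the array's platform annotation (17783 with 1 symbol, 284 with several, 4349 without), of which 17759 matched RefSeq by Entrez identifier, and the probe set of highest mean stood for a gene. Levels beyond 2 log2 units above the median array were counted. Promoters of 5 of the 6 genes were in the RefSeq table. The panel tests used lmFit and eBayes of limma 3.58.1 (R 4.3.3) without a covariate, called at an adjusted p under 0.05. They were tested on data simulated with normal noise, which does not copy genes with a few very high arrays. Python 3.11.15, numpy 2.4.6, pandas 2.3.3 and matplotlib 3.10.9 were also used.

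Genes named beyond the 6 were the 5 with the highest Pearson's r with each of them, and list members with an array beyond 2 log2 units. Low keratins and envelope proteins, Trp63, Itgb4, Perp, Dsp, Jup, Nt5e, Dpp4 and Adk were named after their values were seen. So were Rag2, Ptcra, Foxn1, Myh8, the heart genes and the genes called between panels. The genes, lists, limits and alternatives were chosen with earlier results of these data known. Alternatives were a filter on dim probe sets (above the 40th percentile), an intensity trend, a Gapdh covariate, unaveraged strains, ranges of title numbers and limits of 1 and 3 log2 units. Leaving out the arrays with a gene beyond 2 log2 units was added after the data were seen.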

Additional observations from a re-analysis of the deposited data

How the results depend on the processing

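No probe set of the 6 genes was called under any of the 129 combinations of probe set, comparison and alternative, and 105 kept the sign of their difference. Between AXB and BXA 0 probe sets of the whole array were called under any alternative, so those combinations cannot set the 6 genes apart. The filter on dim probe sets kept only Krt4, Lor and Ada, and it goes by the mean, which the few high arrays raise. Their medians lay at the 10.9, 26.3 and 28.0 percentiles, under the 40th. Between BXD and AXB with BXA, 1669 probe sets were called, and 608 with the Gapdh covariate, 665 in the lower and 232 in the upper range of title numbers, with fewer families in each range. Between BXH and the classical strains 23 were called, 1 without the arrays that carry a squamous gene (9 against 25 strains) and 2 among title numbers of 40 and above (4 against 28). These 2 were not among the 23. At limits of 1 and 3 log2 units Krt5 passed on 8 and 1 arrays in place of 4, and above the higher parent on 4 and 0 in place of 2. Krt14 passed on 2 arrays at 1 log2 unit in place of 0. Krt4, Krt13, Lor and Ada kept counts within 1 array of those given. The cause of these shifts was not tested. No paired analysis was possible because the labels give no shared replicate numbers and each strain has 1 array. Most arrays lie at the low end of the scale for these genes, where differences cannot be resolved.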
